A study of Homo sapiens with 6 samples.

Results

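The C2H2 zinc finger genes named ZNF and a number were followed here on chromosome 19, where the largest share of this gene family lies in tandem clusters. Members were the protein-coding genes with such a symbol on chromosome 19 whose summed read count reached 200 over the 4 libraries of mimic-treated cells. Of 240 such genes in the annotation, 204 were members and 36 fell short, out of 13078 genes of all kinds that reached the same minimum. The members just inside it were ZNF382, ZNF235 and ZNF491, with summed counts of 220, 226 and 230, and the genes just outside it were ZNF763, ZNF99 and ZNF404, with 149, 132 and 129.

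The libraries came from MDA-MB-231, an established human line of triple-negative breast cancer. Cells had been transfected with 25 nM of a miR-99b-5p mimic, a synthetic copy of that microRNA, or of a negative control oligonucleotide, and were harvested 18 h later. RNA bound to Argonaute-2 (AGO2), the protein that carries microRNAs, was pulled down with an antibody (AGO2-IP), and the flow-through is the RNA that the pull-down left behind. There were 2 mimic AGO2-IP libraries, 2 mimic flow-through libraries, and 1 control library of each fraction, so mimic against control has no replicate check on the control side. No genotype differed between the groups, and all cells had received an oligonucleotide.

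Most ZNF proteins of this chromosome join an N-terminal KRAB domain to a row of C2H2 zinc fingers. The fingers read DNA, very often within transposable elements, and KRAB recruits TRIM28 (KAP1), which brings the SETDB1 histone methyltransferase, HP1 proteins and the NuRD complex to silence the site. Each finger is encoded by a repeat unit, and the units lie side by side in a single exon. A microRNA pairs with mRNA chiefly through its seed, bases 2 to 8, and some seeds happen to be complementary to the zinc finger repeat, so that 1 coding sequence can hold many matches.

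The depth differed between treatments. Counts assigned to genes came to between 38022779 and 48544756 in the mimic libraries and to 7772149 and 8076375 in the control flow-through and AGO2-IP. Of the control read pairs, 92.3% and 95.0% were assigned to no gene, against 21.4% to 47.2% of the mimic ones, and 73.7% and 76.7% mapped to several places, against 2.38% to 19.2%. All control ratios rest on these libraries, and the part of this in them was not tested. The mimic flow-through libraries also stood apart from each other, with a standard deviation of 1.44 for their log2 differences over genes, against 0.84 between the mimic AGO2-IP libraries. VIM and CD44, mesenchymal and basal markers of this line, were read at 129 to 594 and at 59.0 to 478 CPM (counts scaled to the same total in each library), ESR1 and PGR at 0.991 CPM or less, and ERBB2 at 37.7 to 172 CPM.

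Sequences are shown for the transfected microRNA and for finger repeats of members that were high or low in the pull-down. Mature microRNAs are given first, from RefSeq, with the seed in capitals. miR-99b-5p, the transfected one, is itself encoded on the plus strand at chr19:51692618-51692639 (GRCh38). The other pair have seeds that match zinc finger repeats. Their own levels were not measured in these libraries.
miR-99b-5p: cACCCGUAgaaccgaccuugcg
miR-23a-3p: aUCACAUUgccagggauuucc
miR-181a-5p: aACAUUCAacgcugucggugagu

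Below are single coding finger units of 84 bases, read from the GRCh38 genome, each starting 6 bases before the codon of a finger's first zinc-binding cysteine. Capitals mark a match to the miR-23a-3p seed (AATGTGA, searched on the coding strand) in the 4 units of the ZNF91 cluster described below, and a match to the miR-181a-5p seed (TGAATGT) in ZNF146. The unit of ZNF358, a member low in the pull-down, holds neither. The units lie at chr19:24126796-24126879 (plus strand, ZNF254), chr19:21423452-21423535 (plus, ZNF493), chr19:21809014-21809097 (minus, ZNF43), chr19:23362016-23362099 (minus, ZNF91), chr19:36236570-36236653 (plus, ZNF146) and chr19:7519693-7519776 (plus, ZNF358).
ZNF254: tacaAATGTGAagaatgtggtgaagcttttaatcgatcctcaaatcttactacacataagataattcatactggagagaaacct
ZNF493: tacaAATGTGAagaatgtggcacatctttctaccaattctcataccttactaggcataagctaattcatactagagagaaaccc
ZNF43: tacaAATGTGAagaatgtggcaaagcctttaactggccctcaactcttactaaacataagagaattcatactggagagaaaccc
ZNF91: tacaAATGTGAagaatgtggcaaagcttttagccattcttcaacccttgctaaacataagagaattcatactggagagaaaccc
ZNF146: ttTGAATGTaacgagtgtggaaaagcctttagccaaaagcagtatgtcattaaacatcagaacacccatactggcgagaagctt
ZNF358: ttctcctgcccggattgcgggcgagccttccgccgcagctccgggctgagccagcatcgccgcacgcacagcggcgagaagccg

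Against the ZNF254 unit, the ZNF43, ZNF91 and ZNF493 units differed at 11, 13 and 16 of the 84 bases, that of ZNF146 at 31 and that of ZNF358 at 45. Their GC content was 33.3% in ZNF254 and 72.6% in ZNF358. Each cluster unit printed is the first of its gene with AATGTGA at base 5. That of ZNF146 is its first unit with TGAATGT, and that of ZNF358 its first unit. Part of the likeness among the cluster units was thus fixed by the choice.

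The first comparison asked which of these mRNAs were more abundant in the AGO2-IP than in the flow-through of mimic-treated cells. Among members, most of the strongest values came from 1 place. A block on the short arm near the centromere, chr19:19668796-24129968, holds 37 annotated ZNF genes and 30 members, ZNF91 among them, and is called the ZNF91 cluster here. It is 1 of 16 clusters obtained by splitting wherever neighbouring ZNF genes lie over 1 Mb apart. Its members had a median log2 fold change of 3.06 and 27 of the 30 were at 1 or above, while the other 174 members had a median of 0.51 and 61 at 1 or above. Over all genes tested the median was -0.11 and 20.0% were at 1 or above. High values were not particular to chromosome 19. The 205 ZNF genes on other chromosomes had a median of 0.51, with 66 at 1 or above. Of these, edgeR called 3 enriched, against 0.245% of all genes. They were ZNF92 and ZNF680 on chromosome 7, at 5.99 and 4.87, and ZNF595 on chromosome 4, at 4.20.

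ZNF254, a KRAB member at the centromeric end of the cluster, was read at 50.9 and 135 CPM in the mimic AGO2-IP libraries and at 8.74 and 1.73 CPM in the flow-through libraries. ZNF493 was read at 25.5 and 46.4 CPM against 2.66 and 1.38 CPM, and ZNF43 at 68.8 and 188 CPM against 12.6 and 7.35 CPM. In each of these 3 genes both AGO2-IP values lay above both flow-through values. The log2 fold changes were 4.28 (standard error, SE, 0.87) for ZNF254, 4.18 (SE 0.76) for ZNF493 and 3.70 (SE 0.73) for ZNF43. Of all members only ZNF493 was called, at an adjusted p of 0.0433 (edgeR, quasi-likelihood, adjusted by Benjamini and Hochberg's method over all genes). ZNF43 and ZNF254 lay just outside the threshold of 0.05, at 0.0501 and 0.0529 from the same test.

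ZNF91, a KRAB protein known to silence SVA retrotransposons, was read at 79.6 and 226 CPM in the AGO2-IP and at 23.4 and 3.73 CPM in the flow-through, a log2 fold change of 3.64 (SE 0.88, adjusted p = 0.0656 from edgeR). ZNF93, which silences older LINE-1 elements, had 16.4 and 50.1 CPM against 5.30 and 2.49 CPM, a log2 fold change of 3.14 (SE 0.80, adjusted p = 0.0736 from edgeR). Neither pair of AGO2-IP values overlapped the flow-through values. ZNF737, ZNF708, ZNF100 and ZNF675, further KRAB members of the cluster, were at log2 fold changes of 3.92, 3.91, 3.83 and 3.68. The 16 highest members of all 204 lay in the cluster, from ZNF254 down to ZNF682 at 2.99.

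**Figure D1:**
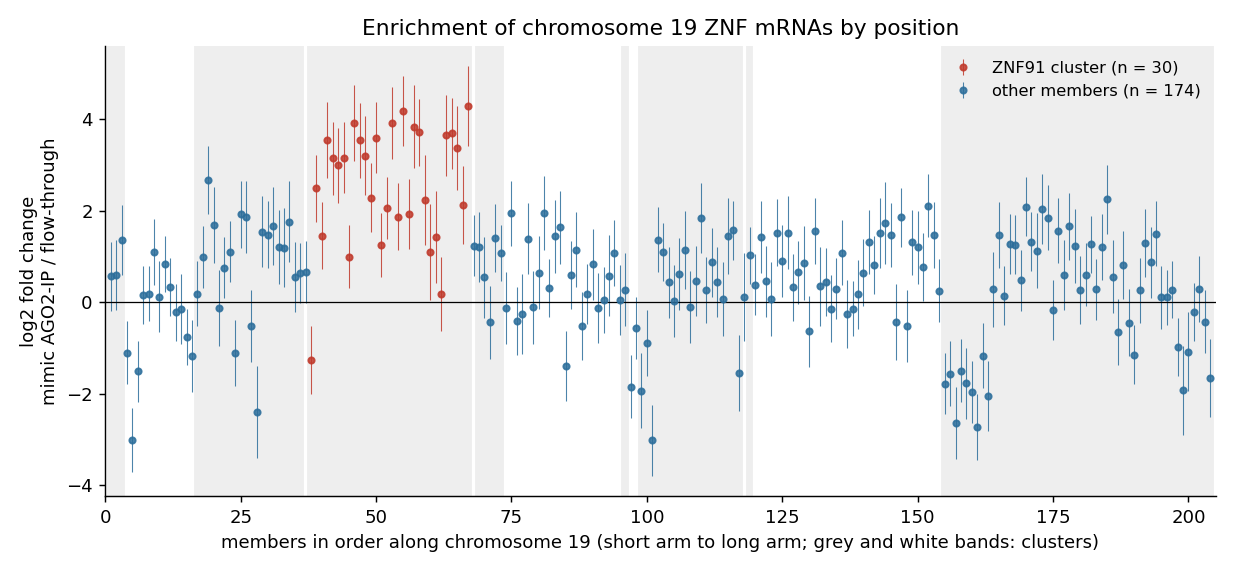
Each of the 204 members in its order along chromosome 19 (horizontal axis, rank) against its log2 fold change between mimic AGO2-IP and flow-through (vertical axis), with bars of 1 standard error from 2 libraries a side and grey and white bands for clusters. The 30 members of the ZNF91 cluster (red) had a median of 3.06, and a run of 9 neighbours early in the last cluster lay at -1.17 or below.

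Calls followed the fit. Without the replicate number, 1 of 204 members was called enriched and 0 depleted at a fold of 2 or more (log2 of 1) and an adjusted p of 0.05, against 0.245% and 0.413% of all genes tested (edgeR). At an unadjusted p under 0.05 and the same fold, 38 members were higher and 13 lower, against 10.6% and 13.1% of all genes. Since a flow-through is what a pull-down left behind, the replicate number was also fitted as a block, and 21 members were then called enriched and 4 depleted (4.60% and 5.08% of all genes). PyDESeq2, the tool of the study, called 30 and 8 (6.43% and 8.24% of all genes). In the cluster alone the enriched calls were 1, 17 and 21 in these 3 fits, so that 17 of the 21 blocked calls and 21 of the 30 PyDESeq2 calls among members were cluster genes. Leaving out the first flow-through library gave a median log2 fold change of 1.11 over members and 0.0873 over all genes. Without the second AGO2-IP library these were 0.65 and -0.13.

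By the order of single libraries, 97 of the 204 members had both AGO2-IP values above both flow-through values and 31 had both below, against 26.4% and 28.7% of all genes. These are 47.5% and 15.2% of the members, and the ZNF genes on other chromosomes were close to them, at 42.0% and 16.1%. In the cluster the counts were 26 and 1 of 30. At a log2 fold change of -1 or below were 25 members, 12.3%, against 26.9% of all genes. Of the 204, 171 reached the minimum in the AGO2-IP pair and the flow-through pair separately. Through the AGO2-IP pair only came 14, of which 4 were cluster genes, and through the flow-through pair only came 12. Another 7, of which 2 were cluster genes, reached it in neither pair alone.

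The exceptions inside the cluster were few. ZNF101, its first gene, was read at 6.93 and 9.86 CPM in the AGO2-IP and 12.2 and 24.5 CPM in the flow-through, a log2 fold change of -1.26 (SE 0.75). It was the only member there with both AGO2-IP values below both flow-through values. ZNF724 (0.18) and ZNF486 (0.995) also stayed under 1. ZNF724 shares 51.5% of its 100-base transcript windows with other genes, so its counts are uncertain, as are those of ZNF98 (34.4%) and ZNF738 (24.2%), the only cluster members above 20%.

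Transcript GC content moved with these values. The cluster members had a median GC content of 37.2%, the other members 42.9% and all genes tested 48.0%. Across the 204 members Spearman's rho between GC content and log2 fold change was -0.60, given as a description because the genes share libraries and depth. Among transcripts under 40% GC, the 25 in the cluster had a median log2 fold change of 3.15 and the 31 members elsewhere 1.15. At the same limit, 42 ZNF genes of other chromosomes had 1.05, and 1934 protein-coding genes not named ZNF and a number 0.66. With a smooth GC trend removed from each library, the cluster median was 2.14 and that of the remaining members 0.16, and 10 members were called enriched, 8 of them in the cluster, and 0 depleted (3.41% and 2.41% of all genes). With the block as well, 31 members were called enriched and 11 depleted, against 13.8% and 12.4% of all genes, and 18 of the 31 were in the cluster. Over all 204 members the median went from 0.65 to 0.26 with that correction, and over all genes from -0.11 to -0.06.

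**Figure D2:**
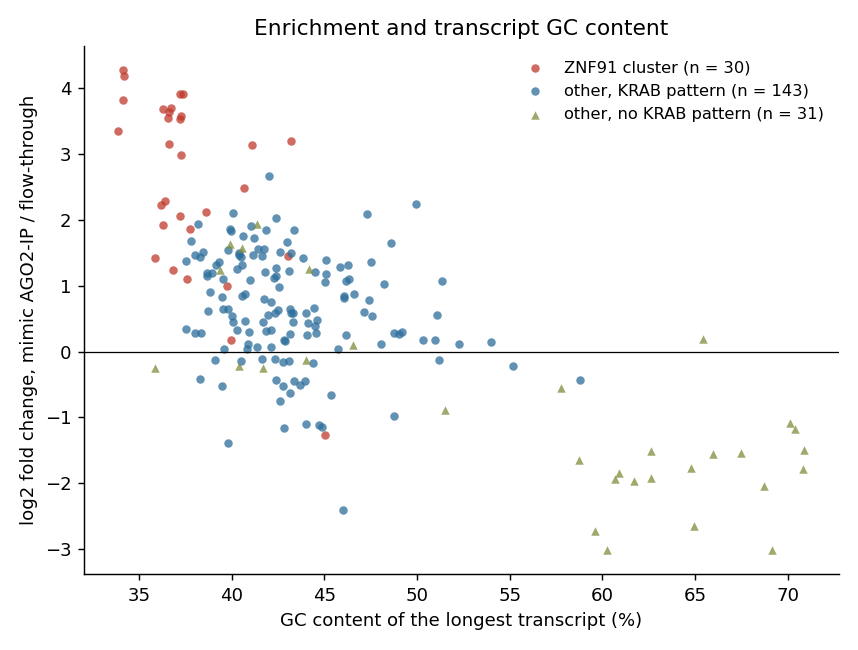
GC content of the longest transcript (horizontal axis, percent) against log2 fold change between mimic AGO2-IP and flow-through (vertical axis) for 30 members of the ZNF91 cluster, 143 other members with a KRAB pattern and 31 without. At GC contents under 40% the cluster members reached 4.28 and the others stayed below 2, and 18 of the 22 members at 55% GC or more lay at -1 or below.

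The coding repeat of the cluster differed from that of the other members. The motif AATGTGA was present in the coding sequence of 28 of 30 cluster members, with a median of 11 matches, and in 83 of the other 174, whose median was 0. It occurs in the coding sequence of 16.4% of 11742 protein-coding genes, and of the 85 genes with 5 or more matches 75 are ZNF genes. In the cluster 245 of 323 matches began at base 5 of a finger unit, as in the sequences printed above, where the letters TGT are the cysteine codon, and 62.7% of the 391 units carried it there, against 7.5% of 2073 units in the other members. The motif TGAATGT had the opposite distribution, in 11 of 30 cluster members and in 136 of the other 174, and in the coding sequence of 14.4% of protein-coding genes. The motifs can overlap in the letters AATGT, and both were searched on the coding strand only.

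Seen against the fold changes, the 28 cluster members with 5 or more AATGTGA matches had a median of 3.15, and the 24 members elsewhere with 5 or more had 0.71. Members outside the cluster with none had 0.31. On other chromosomes, 23 ZNF genes with 5 or more matches had a median of 2.29 and 182 with fewer had 0.38. The median GC content of these groups was 38.8% and 47.5%, and with the GC trend removed they were at 1.39 and 0.37. After the same correction, members outside the cluster were at 0.12 with 5 or more matches and 0.17 with none. The 28 cluster members were then at 2.36. Another 10 protein-coding genes, not named ZNF and a number, had 5 or more. Their median was -0.87, and -1.31 with the GC trend removed. They include ZFP62, also a zinc finger gene, with 12 matches. Their median transcript was 19623.5 bases long, against 4169.5 in the cluster members with 5 or more. Their coding sequences held 0.34 matches per kilobase, against 6.42 in those cluster members. The 2 cluster members without an AATGTGA match lay apart from each other. ZNF14, with 10 matches of TGAATGT, was at 2.49 (SE 0.73), and ZNF101, the lowest of the cluster, was at -1.26. A match is a description of the sequence, and binding there was not measured. These motifs were looked at after the fold changes were known.

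Matches to the transfected microRNA were counted in the same genes. The 7-base match to the miR-99b-5p seed, TACGGGT, was in the coding sequence of 0 of 30 cluster members and 8 of the other 174, and in 1.87% of protein-coding coding sequences. The 6-base match ACGGGT, held by 9.97% of coding sequences, was in the transcript of 31 of 204 members, of which ZNF430 is in the cluster, and of 2276 of the 13078 genes tested. Those 31 had a median log2 fold change of 0.43, and the 173 without it 0.85. The 13 members with a 7-base match anywhere in the transcript (TACGGGT or ACGGGTA) had 0.56. Of them 0 were called by edgeR, by its blocked fit or by PyDESeq2, and 0 were at an unadjusted p under 0.05 and the same fold. Of all genes, these fits called 0.245%, 4.60% and 6.43% enriched and 0.413%, 5.08% and 8.24% depleted. By the unadjusted rule 10.6% of all genes were higher and 13.1% lower. With only 13 members, 0 calls are no result about the seed match.

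Outside the cluster, KRAB members lay moderately above 0. The 143 with a KRAB pattern had a median of 0.63 and 56 at 1 or above. ZNF823, from the cluster at chr19:11483427-12640098 (20 members, median 1.14), had the highest value, 2.66 (SE 0.74, adjusted p = 0.0855 from edgeR and 0.0117 with the block). ZNF671 and ZNF548, both from the long-arm end, followed among the blocked calls at 2.25 and 2.04, with adjusted p of 0.0394 and 0.0463 from the blocked edgeR fit. The 22 members at chr19:36182276-37817300 and the 19 at chr19:43525497-45076478 both had a median of 0.44, and the 13 at chr19:7069703-9793180 one of -0.15. The 2 largest long-arm clusters, chr19:51571283-53580269 with 35 members and chr19:55476617-58481230 with 50, had medians of 0.78 and 0.28.

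The members without a KRAB pattern split by composition. The 20 with 55% GC or more had a median log2 fold change of -1.78, and 18 of them were at -1 or below. The 13 with less had a median of 1.23 and none at -1 or below. With the GC trend removed these medians were -0.37 and -0.11. ZNF358, with 9 fingers and 69.2% GC, was read at 4.96 and 5.58 CPM in the AGO2-IP and 38.0 and 43.1 CPM in the flow-through, a log2 fold change of -3.02 (SE 0.70). ZNF428, with 1 finger, was read at 9.05 and 4.52 CPM against 32.7 and 66.5 CPM, also -3.02 (SE 0.77). In both genes all AGO2-IP values were below all flow-through values. The 4 blocked depleted calls were ZNF358, ZNF428, ZNF581 and ZNF524, with adjusted p of 0.00635, 0.0124, 0.0121 and 0.0182 from edgeR with the block. Without the block edgeR gave 0.0617, 0.0742, 0.0778 and 0.0961.

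Among the low members, ZNF358, ZNF428, ZNF524 and ZNF575 overlap an annotated gene on the opposite strand. The unstranded counts leave out reads that fall on both, and the strand columns summed to 2.16, 1.71 and 6.15 times the unstranded count in ZNF358, ZNF428 and ZNF575. Another low value, ZNF625 at -2.40, rests on 13 and 23 counts in the AGO2-IP, and 74.1% of its transcript windows occur in other genes. ZNF444, ZNF580 and ZNF575 were at -2.05, -1.96 and -1.93 and did not pass edgeR with or without the block, and PyDESeq2 called ZNF444 and ZNF580 (adjusted p = 0.0459 and 0.0280).

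Neighbours also sat together at the low end. From ZNF628 to ZNF444, at chr19:55476617-56160893, 9 consecutive members (ZNF628, ZNF579, ZNF524, ZNF865, ZNF784, ZNF580, ZNF581, ZNF787 and ZNF444) were at -1.17 to -2.73. All 9 lack the KRAB pattern and have 59.6% to 70.9% GC. The 648 further protein-coding genes of chromosome 19 had a median of -1.28 and a median GC content of 60.5%. Position, GC content and lack of KRAB coincide in the 9, and their parts in the low values were not tested. With the GC trend removed the 9 ranged from -1.85 to 0.67, with a median of -0.31, and ZNF787 was the highest. The longest run at 1 or above held 16 consecutive members, from ZNF737 to ZNF492 in the ZNF91 cluster, and its median was 1.97 after the same correction.

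Levels per length put different members in front. By mean CPM per kilobase over the 6 libraries, ZNF787 came first at 41.3, then ZNF146 at 36.6, ZNF428 at 19.8, ZNF584 at 19.7 and ZNF444 at 17.7, and the median member was at 2.24. ZNF146, which consists of fingers with no KRAB pattern, was read at 301 and 217 CPM in the mimic AGO2-IP and at 121 and 25.05 CPM in the flow-through. Its log2 fold change was 1.94 (SE 0.71, adjusted p = 0.143 from edgeR and 0.0442 with the block). ZNF787 was read at 70.0 and 44.8 CPM against 65.1 and 165 CPM, so its groups overlapped. ZNF274, which recruits SETDB1 to ZNF genes themselves, and ZNF331, an imprinted gene, had values of 0.11 (SE 0.60) and 0.24 (SE 0.69), with overlapping groups.

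The genes of the proteins that KRAB factors work with were also followed. Of 32 genes of the co-repressor list (TRIM28, SETDB1, HP1, NuRD, HUSH, DNA methylation and SUMO components), all were measured, the median log2 fold change was 0.36 against -0.11 over all genes, with 9 at 1 or above and 3 at -1 or below. By edgeR 0 were called, with 5 higher and 2 lower at an unadjusted p under 0.05 and the same fold, and PyDESeq2 called HDAC2 and MORC2, counts to be read against the shares of all genes given above for the same rules. TRIM28 itself was at -0.40 (SE 0.67) and SETDB1 at 1.37 (SE 0.63, adjusted p = 0.212 from edgeR). HDAC2 had the highest value of the list, 2.12 (SE 0.64), with an adjusted p of 0.101 from edgeR and 0.0383 with the block.

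As a share of all counts on genes, the 30 cluster members made up 0.0216% and 0.0161% of the flow-through with the mimic and 0.0130% in the control. In the AGO2-IP they made up 0.0679% and 0.170% with the mimic and 0.0669% in the control. The second mimic pull-down thus held the largest share, and all 3 pull-downs lay above all 3 flow-through libraries. The other 174 members made up 0.127% to 0.265% of the flow-through libraries and 0.247% to 0.306% of the pull-downs, and these ranges overlapped.

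**Figure D3:**
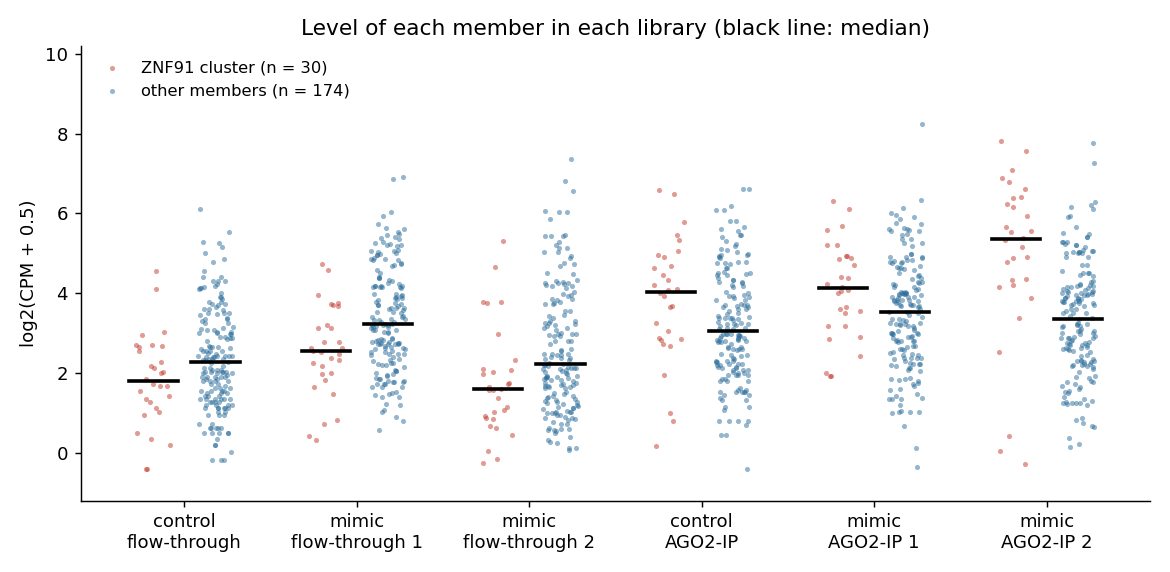
Level of each member in each of the 6 libraries, as log2(CPM + 0.5), for the 30 members of the ZNF91 cluster (red) and the 174 others (blue), with the median as a black line. The cluster median was 2.51 to 5.34 CPM in the 3 flow-through libraries and 15.97 to 40.8 CPM in the 3 AGO2-IP libraries, while that of the other members was 4.16 to 8.87 and 7.74 to 10.99 CPM.

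The second comparison asked whether the same mRNAs were high in the pull-down of control cells. There was 1 library a side, so the log2 ratios carry no test, and only 58 members reached 200 counts in the pair. Their median log2 ratio was 0.47, with 18 at 1 or above and 3 at -1 or below, against 15.9% and 18.1% of all genes with a value. Of the 18, 9 were in the ZNF91 cluster, where 10 members had a value and the median was 1.99. The other 48 members had a median of 0.28. On other chromosomes 92 ZNF genes had a value, with a median of 0.43 and 29 at 1 or above.

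ZNF43 had the highest control ratio, 2.95, from 89.0 CPM in the control AGO2-IP and 6.05 CPM in the flow-through. The printed CPM are before TMM normalization, which lowers the control ratios, so that by library size alone ZNF43 was at 3.84. ZNF708 followed at 2.92, with 32.9 against 2.19 CPM, then ZNF254 at 2.704, ZNF626 at 2.40 and ZNF737 at 2.18. All 5 were cluster members. ZNF493, with 145 and 12 counts in the pair, had too few for a ratio. ZNF91 was at 1.18 and ZNF93 at 1.15, the lowest of the cluster apart from ZNF714 at 0.48.

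ZNF358 had the lowest control ratio, -1.90, with 15.6 CPM in the AGO2-IP and 31.9 CPM in the flow-through. ZNF580 was at -1.70, ZNF121 at -1.09, ZNF587 at -0.87 and ZNF574 at -0.78. Among transcripts under 40% GC, the 9 cluster members with a value had a median control ratio of 2.18. For 1244 protein-coding genes not named ZNF and a number it was -0.39. Without TMM, by library size alone, the median of all genes was 0.91 and that of the members 1.36, 39 of the 58 then being at 1 or above.

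**Figure D4:**
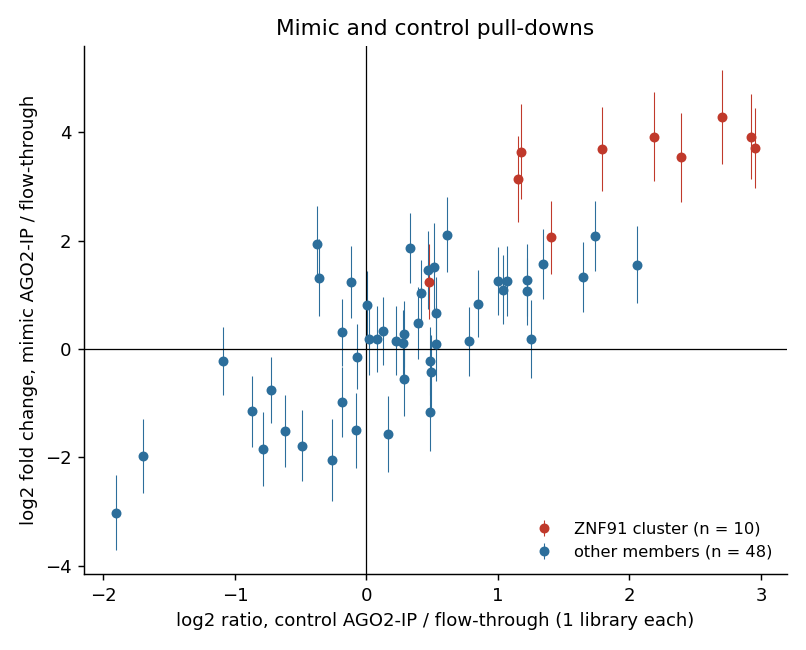
Log2 ratio of control AGO2-IP to control flow-through (horizontal axis, 1 library each) against the log2 fold change in mimic-treated cells (vertical axis, bars of 1 standard error) for the 58 members with 200 counts in the control pair. All 10 members of the ZNF91 cluster lay above 0 on both axes, with control ratios from 0.48 to 2.95.

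The third comparison set the mimic against the control pull-down, to ask where the transfected microRNA went with a different AGO2-bound level. Over 190 members the median log2 ratio was 0.57, with 32 at 1 or above and 6 at -1 or below, against 17.3% and 17.4% of all genes. With the GC trend removed the median was 0.14 and 7 were at 1 or above. Over 11450 of the genes tested the corrected median was 0.04, and 1302 were at 1 or above. The highest members were not those of the ZNF91 cluster. ZNF112, a KRAB gene of the cluster at chr19:43525497-45076478, was read at 4.43 and 4.31 CPM in the mimic AGO2-IP libraries and at 1.11 CPM in the control one, a log2 ratio of 2.04. The control value rests on 9 counts.

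ZNF443 was at 1.83, ZNF225 at 1.82, ZNF791 at 1.65 and ZNF260 at 1.63. In all 5 of these genes both mimic libraries gave a ratio above 1. Both ratios share the 1 control library, and the genes were picked by the mean of both, so this is no separate check. At the other end, ZNF837 was at -1.51, ZNF358 at -1.42, ZNF524 at -1.29, ZNF580 at -1.18 and ZNF415 at -1.08. ZNF415, a KRAB gene, remained at -1.56 with the GC trend removed, and ZNF837, ZNF358, ZNF524 and ZNF580 were then between -0.38 and -0.30.

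The cluster set the mimic pull-downs apart from each other. Over 28 cluster members with a value the median ratio to the control was 0.26 in the first mimic AGO2-IP library and 1.53 in the second, and 2 and 25 of them were at 1 or above. The second library gave the higher ratio in 27 of these 28 genes and in 67 of the other 162. With both libraries averaged the cluster median was 0.83, and with the GC trend removed it was 0.02, so that a difference between mimic and control pull-downs was not shown for the cluster beyond the spread of the 2 mimic libraries. ZNF91 illustrates it, at 79.6 CPM in the first, 226 CPM in the second and 96.5 CPM in the control pull-down.

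A few neighbours ran the other way. ZNF257, ZNF98 and ZNF492, consecutive members at the middle of the cluster, had 226, 164 and 154 counts in the first mimic AGO2-IP library and 32, 12 and 20 in the second. The flow-through libraries showed the same order, with 39, 60 and 54 counts in the first and 19, 26 and 16 in the second. They were the only cluster members with a lower CPM in the second AGO2-IP library, and were chosen after their values were seen. ZNF98 and ZNF492 share 34.4% and 18.6% of their transcript windows with other genes.

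**Figure D5:**
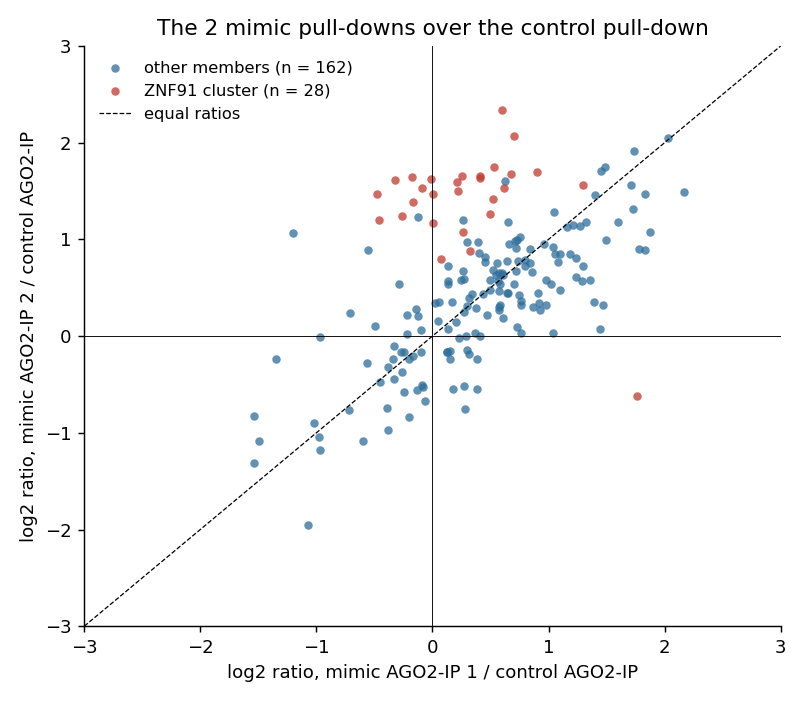
Log2 ratio to the control AGO2-IP library of the first mimic AGO2-IP library (horizontal axis) and of the second (vertical axis) for 190 members, with a dashed line at equal ratios. The 28 members of the ZNF91 cluster (red) lay above the line apart from ZNF257, with medians of 0.26 and 1.53.

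In the flow-through, mimic over control, 187 members had a median log2 ratio of 0.18, and all genes 0.05. The 25 cluster members with a value had a median of -0.19, whose sign turned by library size alone (0.28), with the GC trend removed (0.32) and without the first mimic library (0.56). ZNF91 was at -1.76, from 23.4 and 3.73 CPM in the mimic libraries and 22.9 CPM in the control one, so the first mimic library and the control were alike and the second was lower. Across all members, 168 of 204 were lower in the second mimic flow-through library than in the first, against 64.6% of all genes.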

How the data were processed

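RNA of the AGO2 pull-down and of its flow-through was sequenced in 6 libraries of MDA-MB-231 cells. The authors trimmed reads with cutadapt 3.5 after FastQC 0.11.9, aligned them with STAR 2.7.11b to GRCh38 and deposited raw counts of read pairs per gene (unstranded, and 1 column per strand). The Ensembl release is not given in the sources used here. Unstranded counts leave out multimapping reads and reads over 2 genes.

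Genes were named through GENCODE by Ensembl number (60463 of 60708 matched). Genes with a summed count of 200 over the mimic libraries were tested with edgeR 4.0.16 (TMM, quasi-likelihood, Benjamini-Hochberg adjustment, R 4.3.3), and calls needed a log2 fold change of 1 and an adjusted p of 0.05. SE is the log2 fold change over the root of F. Comparisons with 1 control library used ratios of CPM after TMM on the log2 scale, with 2 as the prior count, over pairs or trios summing to 200, with no p. CPM printed per library is per gene-assigned count. KRAB patterns, finger units and motifs were found in translated or plain GENCODE coding sequences. The GC trend was a lowess curve (span 0.2) per library. The script was tested on simulated data. Counting error at low counts was not modelled in the ratios.

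Genes named are the called members, the 8 highest and 8 lowest by log2 fold change among members whose groups did not overlap, the 5 highest and lowest ratios, the 5 most abundant per length, and members with a known role, and others named were chosen after their values were seen. Members, lists and clusters were chosen with earlier results of these data known. Libraries that share a number deviated together, with Pearson's r of 0.32 over genes, and were taken as pairs in the block because a flow-through is the remainder of a pull-down. PyDESeq2 0.5.4, DESeq2 1.42.0 size factors, library size alone, count minimums of 10 and 2000, the replicate block, GC removal, strand columns, thinning to 7772149 counts and leaving out each library were the alternatives.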

Additional observations from a re-analysis of the deposited data

Results flagged for a closer look

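ZNF146, a protein of fingers alone, had a log2 ratio of -0.3772 in the control pair, while in mimic-treated cells both AGO2-IP values (301 and 217 CPM) lay above both flow-through values (121 and 25.05 CPM). The control libraries gave 97.6 CPM in the AGO2-IP and 68.3 CPM in the flow-through before TMM normalization, and by library size alone its control ratio was 0.53, so its sign rests on the scaling. With 1 control library a side the difference between treatments was not tested. Such opposite signs, with mimic libraries that do not overlap, occurred in 5 of 58 members (8.62%) and in 10.9% of all genes with both values.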

How the results depend on the processing

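Calls among the members depended on the fit. Against 1 enriched and 0 depleted of 204 with edgeR, PyDESeq2 called 30 and 8 (6.43% and 8.24% of all genes). The replicate block gave 21 and 4 (4.60% and 5.08% of all genes). Block and GC removal together gave 31 and 11, against 13.8% and 12.4% of all genes. GC removal alone gave 10 and 0 (3.41% and 2.41% of all genes). A summed count of 10 gave 10 and 0 of 204, a count of 2000 gave 13 and 3 of 96, and thinning 11 and 2 of 134. For these last 3 settings no share of all genes is given, so their counts are no result about the members. DESeq2 size factors, library size alone, either strand column, protein-coding genes only and an adjusted p of 0.01 gave 0 enriched. In the ZNF91 cluster the same settings called 21, 17, 18, 8, 10, 13, 11 and, for the last group, 0. Leaving out 1 library gave 0 to 58 enriched and 0 to 18 depleted members, 0 to 20 enriched in the cluster, and a median log2 fold change of 0.60 to 1.11. Such fits have only 1 library left in a group, and no share of all genes is given for them. Their counts of calls are therefore no result about the members either. Over all genes the median without 1 library was -0.19 to 0.0873. The median over members was 0.99 at a count of 10, 0.26 with the GC trend removed and 0.28 with block and GC removal.

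The control median was 1.36 by library size alone and 0.22 from strand column 4, and members at 1 or above numbered 39 of 58 by library size, 39 of 159 at a count of 50, and 6 of 26 and 7 of 24 from strand columns 3 and 4, against 18 of 58. After GC removal 7 of 190 members were at 1 or above in mimic over control AGO2-IP, against 1302 of 11450 genes tested, and 19 of 119 members after thinning. The mimic over control AGO2-IP median was 0.42 by library size and 0.14 with GC removed, and leaving out a mimic library gave 0.43 to 0.61. In the flow-through it was 0.65 by library size, 0.35 with GC removed and 0.33 after thinning, and 0.19 to 0.32 without 1 library. The cluster's flow-through median turned to 0.28 by library size, 0.13 from strand column 4, 0.32 with GC removed and 0.46 after thinning, with -0.0268 to 0.56 without 1 library.

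The signs of some named genes turned, all of them within 0.43 of 0 except ZNF787 at -1.17 and ZNF837 at -1.08. ZNF121 was 0.0603 at a count of 10, ZNF260 0.36 with the block, ZNF331 -0.0584 with GC removed, -0.0597 with the block too and -0.0254 thinned, and ZNF787 0.67 (0.66 with the block) with GC removed. ZNF274 was -0.0908 at a count of 2000, ZNF837 0.81 with GC removed and 0.75 with the block too, and ZNF584 0.22 at a count of 10, 0.40 with GC removed and 0.42 with the block too. Without 1 library the ranges were -0.72 to 0.43 for ZNF121, -1.10 to 1.76 for ZNF260, -1.05 to 0.53 for ZNF415, -0.14 to 0.27 for ZNF274, -1.80 to 0.20 for ZNF837 and -0.73 to 0.44 for ZNF584. The cause was not tested. Low counts limit the control ratios.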
